A study of Mus musculus with 4 samples.

Results

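The genes described are 10 that myoblasts use to recognise, adhere to and fuse with each other, taken by symbol from the 55573 genes of a ribosome profiling table of mouse myoblasts. They are the fusogens Mymk and Mymx, the cadherins Cdh15, Cdh2 and Cdh11, the immunoglobulin adhesion receptors Ncam1 and Vcam1, the tetraspanins Cd9 and Cd81, and Ctnnb1, which codes for beta-catenin. All 10 symbols were found once in the table. The cells were primary myoblasts from hind-limb muscle of mice 3 weeks old, kept in medium with FGF and harvested on day 2 of proliferation, with 2 wild-type (WT) libraries and 2 libraries labelled eIF5A-KO. In the study the knockout mice are Pax7 CreERT2/+;eIF5A f/f animals given tamoxifen and the WT mice are their littermates. Pax7 drives the Cre there, so the deletion is aimed at cells that express Pax7 when tamoxifen is given and at their descendants, and the floxed line is on a C57BL/6j background. The control genotype is given in more than one way in the study, and neither the number of animals behind a library nor separate cultures are stated, although the study calls its profiling experiments duplicate, so p-values measure the spread between these libraries, which may be technical. The cells were treated with cycloheximide, which holds ribosomes on the mRNA, and with RNase I, so that the sequenced fragments are those a ribosome covered. The question the comparison addresses is which mRNAs carry a different ribosome-protected signal in cells marked as lacking the translation factor eIF5A.

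Values are RPKM, the reads on a gene per kilobase of its length, scaled by the library size. The 4 libraries held 642429 to 704006 reads, of which protein-coding genes took 33.9% to 41.5% in the WT libraries and 59.2% to 65.4% in the KO-labelled ones. Eif5a, the targeted gene, was at 34.9 and 65.2 RPKM in the WT libraries and at 60.3 and 59.4 RPKM in the KO-labelled libraries, so its signal did not check the label and every direction below is that of the KO-labelled libraries. WT library 1 stood apart from the other 3 libraries in Myog, the regulator that myoblasts switch on when they leave the cell cycle to differentiate, with 91.0 RPKM against 4.26 in WT library 2, while the KO-labelled libraries had 0.74 and 1.66.

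Muscle fibres form when myoblasts leave the cell cycle, align and merge their membranes. Cadherins hold the aligned cells together through calcium-dependent contacts and pass the load through beta-catenin and alpha-catenin to the actin skeleton, while immunoglobulin receptors and tetraspanins organise the contact site. The fusogens Myomaker, made from Mymk, and Myomixer, made from Mymx, then bring the membranes together, and both genes are known to be switched on at differentiation. eIF5A helps ribosomes through stretches that form peptide bonds slowly, of which consecutive prolines are the best known.

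Proline stretches were read from the longest coding sequence of each gene in GENCODE M21 (build GRCm38), whose gene coordinates were those of the deposited table for all 10 genes. None of the 10 proteins holds 3 or more prolines in a row, against 25.8% of the 9841 tested protein-coding genes with a coding sequence. Pairs of prolines occur 8 times in Cdh15, 7 times each in Cdh2 and Cdh11, 3 times in Ncam1, 2 times in Ctnnb1 and 1 time in Mymx. Mymk, Vcam1, Cd9 and Cd81 have no pair. Shown are the pairs of Cdh15, the member with the most, and those of Ctnnb1 and Mymx, the members with the fewest among those that have any. The pairs of Cdh2, Cdh11 and Ncam1 are of the same length and are not printed. The codons of the pair are in capitals, 5′ to 3′ on the coding strand, with 9 bases to either side in lower case.
Cdh15 prolines 49 and 50, exon 2, chr8:122856595-122856618, plus strand: tgggtcatcCCACCCattagtgtg
Cdh15 prolines 388 and 389, exon 8, chr8:122863482-122863505, plus strand: gaaggagccCCCCCAggcacctct
Cdh15 prolines 460 and 461, across the intron between exons 9 and 10, chr8:122864382-122864518, plus strand: aatgccattCCTCCTagcacagcc
Cdh15 prolines 485 and 486, exon 10, chr8:122864570-122864593, plus strand: ctggctcttCCTCCAtctggcagc
Cdh15 prolines 510 and 511, exon 10, chr8:122864645-122864668, plus strand: gaggacctgCCCCCAcacggggcc
Cdh15 prolines 566 and 567, exon 11, chr8:122865064-122865087, plus strand: tctggggagCCACCCcagcagcga
Cdh15 prolines 687 and 688, exon 13, chr8:122865658-122865681, plus strand: ttgggcaggCCACCCctgcgcagg
Cdh15 prolines 730 and 731, exon 14, chr8:122866847-122866870, plus strand: cccagcgtgCCTCCCtacgacaca
Ctnnb1 prolines 500 and 501, exon 9, chr9:120955632-120955655, plus strand: ctcctgcacCCACCAtcccactgg
Ctnnb1 prolines 767 and 768, exon 15, chr9:120959461-120959484, plus strand: gatgggctgCCCCCAggtgatagc
Mymx prolines 86 and 87, exon 2, chr17:45601474-45601497, minus strand: cagcaacagCCACCGgattctgga
In Cdh15, of 784 residues, 1 pair lies at residue 49 and the other 7 at residue 388 and beyond. The table gives 1 value per gene, so the signal at any of these codons was not measured.

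The 10 genes covered a wide range of levels. In WT cells the mean was 159 ± 132 RPKM (SD, n = 2) for Cd9, 107 ± 10.8 for Cd81, 81.0 ± 19.6 for Ctnnb1 and 8.57 ± 4.46 for Vcam1. Below these came Cdh15 at 4.55 ± 3.67, Ncam1 at 4.44 ± 2.12, Cdh2 at 3.25 ± 2.85 and Cdh11 at 1.45 ± 0.99 RPKM (SD, n = 2). In this order the WT values of Cd9 and Cd81 overlapped, those of Cd81, Ctnnb1 and Vcam1 were each apart from the next, and from Vcam1 down to Cdh11 each gene overlapped with the next. Both tetraspanins and Ctnnb1 lay above 95.3% or more of all tested genes in the WT mean, whereas Cdh11 lay above 11.4%.

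**Figure D1:**
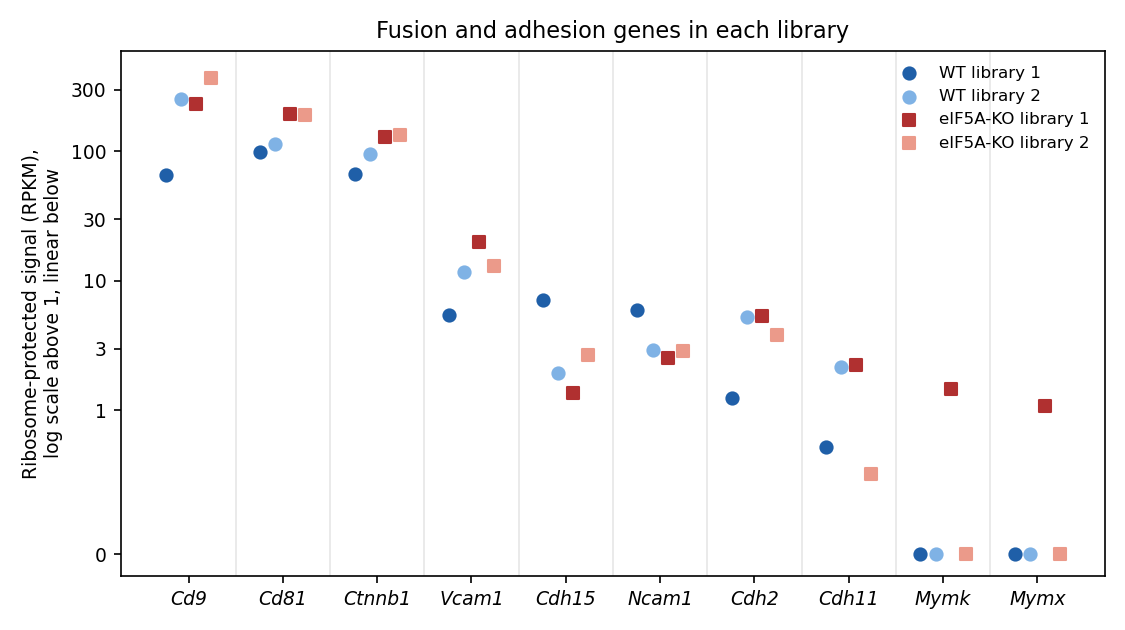
Ribosome-protected signal of the 10 genes in RPKM, on an axis that is logarithmic above 1 and linear below, with 1 point per library (circles WT, squares labelled eIF5A-KO). Cd9, Cd81 and Ctnnb1 lie well above the other genes in all 4 libraries, and Mymk and Mymx are at 0 in all but eIF5A-KO library 1.

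Both fusogens carried almost no signal. Mymk (ENSMUSG00000009214; GRCm38 chromosome 2, 27061636 to 27072179, minus strand) was at 0 in both WT libraries and in eIF5A-KO library 2, and at 1.46 RPKM, 2 reads, in eIF5A-KO library 1. Mymx (ENSMUSG00000079471; chromosome 17, 45600971 to 45602102, minus strand) was likewise at 0 in 3 libraries and at 1.07 RPKM, 1 read, in eIF5A-KO library 1. A count of 0 allows up to 3 reads, which is 2.46 to 4.21 RPKM for Mymk and 3.62 to 6.20 RPKM for Mymx in the libraries at 0. Neither gene reached the mean of 1 RPKM needed for the test, and no difference was detectable at this depth. WT library 1, the library with the high Myog signal, had no read on either fusogen.

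Among the cadherins, WT library 1 differed from the other 3 libraries in which cadherin was highest. Cdh15 (M-cadherin; ENSMUSG00000031962; chromosome 8, 122847966 to 122867397, plus strand), the cadherin of satellite cells and myoblasts, had 7.14 RPKM in WT library 1 and 1.96 in WT library 2, against 1.36 and 2.67 RPKM in the KO-labelled libraries. WT library 1 was the high one, with 14 reads against 3, 4 and 7, and the groups overlapped. From WT to KO label, the log2 fold change of Cdh15 came to -0.74 (SE 0.60, limma adjusted p = 0.722). Leaving out WT library 1 or 2 gave -0.01 and -1.47, leaving out eIF5A-KO library 1 or 2 gave -0.42 and -1.06, and the value was -0.41 with the trend of the change with coding GC content removed.

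Cdh2 (N-cadherin; ENSMUSG00000024304; chromosome 18, 16588877 to 16809246, minus strand), which is shared by muscle, nerve and mesenchymal cells, showed the opposite order. It had 1.23 RPKM in WT library 1 and 5.26 in WT library 2, and 5.33 and 3.84 RPKM in the KO-labelled libraries. WT library 1 was the low one and the groups overlapped. For Cdh2 this change was 0.57 (SE 0.58, adjusted p = 0.753, limma), which became -0.18 if WT library 1 was left out and 1.31 if WT library 2 was.

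Cdh11 (ENSMUSG00000031673; chromosome 8, 102632095 to 102785642, minus strand), a cadherin of mesenchymal cells, had the lowest group means of the 3. It had 0.75 and 2.15 RPKM in the WT libraries and 2.23 and 0.56 RPKM in the KO-labelled ones, from 4 to 18 reads per library. Each group held a low and a high library, with a log2 fold change of -0.06 (SE 0.69, adjusted p = 0.981, limma). Leaving out WT library 1 or eIF5A-KO library 1 gave -0.49 and -0.59, and leaving out WT library 2 or eIF5A-KO library 2 gave 0.36 and 0.46.

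Taken as a sum, the 3 cadherins were at 9.12 and 9.37 RPKM in the WT libraries and at 8.92 and 7.06 RPKM in the KO-labelled ones. The makeup of that sum varied more than the sum itself, with Cdh15 at 78.3% and 20.9% of it in the WT libraries and at 15.2% and 37.8% in the KO-labelled ones. Counted in reads, Cdh15 supplied 58.3% of the reads of the 3 genes in WT library 1 (95% Wilson interval 38.8% to 75.5%; 24 reads), 9.38% in WT library 2 (3.24% to 24.2%; 32 reads), 6.56% in eIF5A-KO library 1 (2.58% to 15.7%; 61 reads) and 19.4% in eIF5A-KO library 2 (9.75% to 35.0%; 36 reads). The interval of WT library 1 did not overlap with that of any other library, and the other 3 overlapped with each other. Counting error alone is covered by these intervals, because PCR copies of a fragment are not separate molecules.

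**Figure D2:**
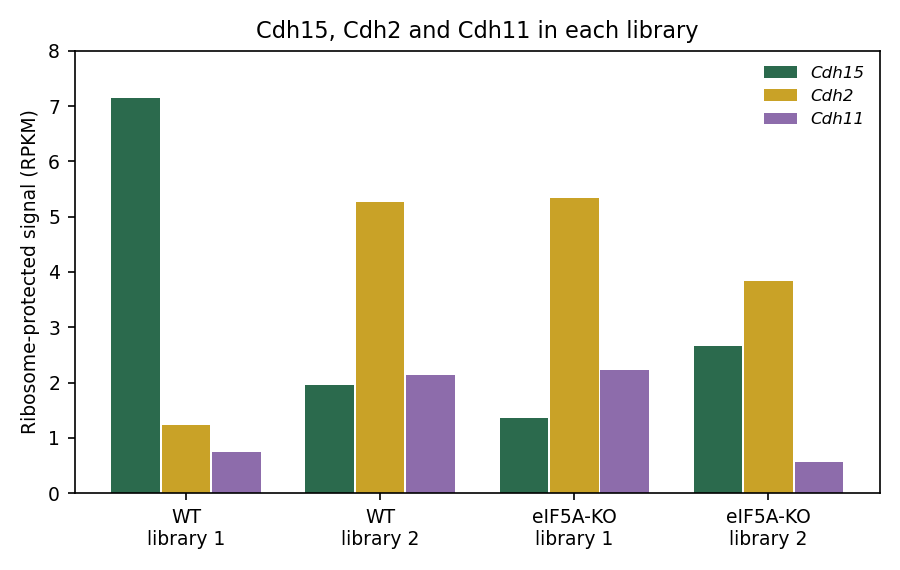
Ribosome-protected signal of Cdh15, Cdh2 and Cdh11 in RPKM, 1 bar per gene and library. Cdh15 is the highest of the 3 in WT library 1 at 7.14 RPKM, and Cdh2 is the highest in the other 3 libraries, at 3.84 to 5.33 RPKM.

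The immunoglobulin receptors lay on opposite sides of 0. Vcam1 (ENSMUSG00000027962; chromosome 3, 116109949 to 116129688, minus strand), a receptor for the integrin VLA-4 that is also a surface marker used to sort satellite cells, had 5.42 and 11.7 RPKM in the WT libraries and 20.01 and 13.0 RPKM in the KO-labelled ones. Both KO-labelled libraries were above both WT libraries, by a small margin between the nearest values. Vcam1 had a log2 fold change of 0.92 (SE 0.49, 95% interval -0.29 to 2.14, limma adjusted p = 0.686). Leaving out WT library 1 gave 0.43, and leaving out WT library 2 gave 1.42.

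Ncam1 (ENSMUSG00000039542; chromosome 9, 49502136 to 49798925, minus strand), which binds itself on neighbouring cells, had 5.94 and 2.94 RPKM in the WT libraries and 2.55 and 2.86 RPKM in the KO-labelled ones. WT library 1 was high, and the other 3 libraries lay close together with both values labelled KO just under that of WT library 2. For Ncam1 the change came to -0.50 (SE 0.44, 95% interval -1.58 to 0.58, limma adjusted p = 0.730). Leaving out WT library 1 gave -0.09 for Ncam1, and leaving out WT library 2 gave -0.91.

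Both tetraspanins, membrane organisers of myoblast contact sites, had the highest means of the members in both groups, although Ctnnb1 was just above Cd9 in WT library 1. Cd81 (ENSMUSG00000037706; chromosome 7, 143052739 to 143067934, plus strand) had 99.7 and 115.0 RPKM in the WT libraries and 194.5 and 192.2 RPKM in the KO-labelled ones, from 156 to 508 reads per library. The replicates of each group lay close together and the groups did not overlap. The Cd81 change on the log2 scale was 0.85 (SE 0.46, 95% interval -0.28 to 1.97, limma adjusted p = 0.690). It stayed between 0.74 and 0.95 when any single library was left out.

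Cd9 (ENSMUSG00000030342; chromosome 6, 125460266 to 125494791, minus strand) varied more within its groups. It had 65.7 RPKM in WT library 1 and 252.3 in WT library 2, and 231.4 and 372.5 RPKM in the KO-labelled libraries. WT library 1 was low, and WT library 2 lay between the KO-labelled libraries. Cd9 had a log2 fold change of 1.18 (SE 0.76, adjusted p = 0.697, limma). Leaving out WT library 1 gave 0.22, and leaving out WT library 2 gave 2.14.

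Ctnnb1 (ENSMUSG00000006932; chromosome 9, 120929216 to 120960507, plus strand) codes for beta-catenin, which links cadherins to alpha-catenin and also carries the Wnt signal to the nucleus. It had 67.1 and 94.8 RPKM in the WT libraries and 130.0 and 134.7 RPKM in the KO-labelled ones, from 210 to 612 reads per library. Both KO-labelled libraries were above both WT libraries. On the log2 scale the change of Ctnnb1 was 0.72 (SE 0.46, 95% interval -0.41 to 1.85, limma adjusted p = 0.697), and it lay between 0.48 and 0.97 when any single library was left out.

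Of the 10 genes, 8 passed the filter of a mean of 1 RPKM and were tested, and 0 were called at an adjusted p under 0.05 by limma, against 0.106% of the 11363 tested genes in either direction. At an unadjusted p under 0.05 the count was also 0, against 507 lower and 325 higher of the 11363 tested genes. The smallest value was 0.112 for Vcam1 (limma). At more than 2-fold and an unadjusted p below 0.05, 0 members were lower, against 4.29% of tested genes, and 0 were higher, against 2.67%. The log2 fold change was above 0 for 5 members and below 0 for 3, with a median of 0.64 against 0.00026 over all tested genes. Values of the KO-labelled libraries lay above both WT values without overlap for Vcam1, Cd81 and Ctnnb1, 3 of 8, against 20.1% of tested genes. They lay below both WT values for Ncam1, 1 of 8, against 20.3%. For a single gene, the two-sided exact permutation p of 2 against 2 libraries cannot go below 0.333.

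The library scaling sets the level to which these changes refer. The authors' library sizes hold the typical gene level between libraries. When the libraries were instead scaled to the same sum of reads, the median over all tested genes moved to 0.50 on the log2 scale and that of the members to 1.19, which is 0.70 above all genes against 0.64 with the authors' scaling. On that scale Cd9, Cd81, Ctnnb1 and Vcam1, 4 members, were over 2-fold higher at an unadjusted p under 0.05, against 13.9% of all genes tested on it, and the smallest adjusted p of the 8 was 0.289 (limma). Without WT library 1 the median of the members was 0.10, and without WT library 2 it was 0.96.

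**Figure D3:**
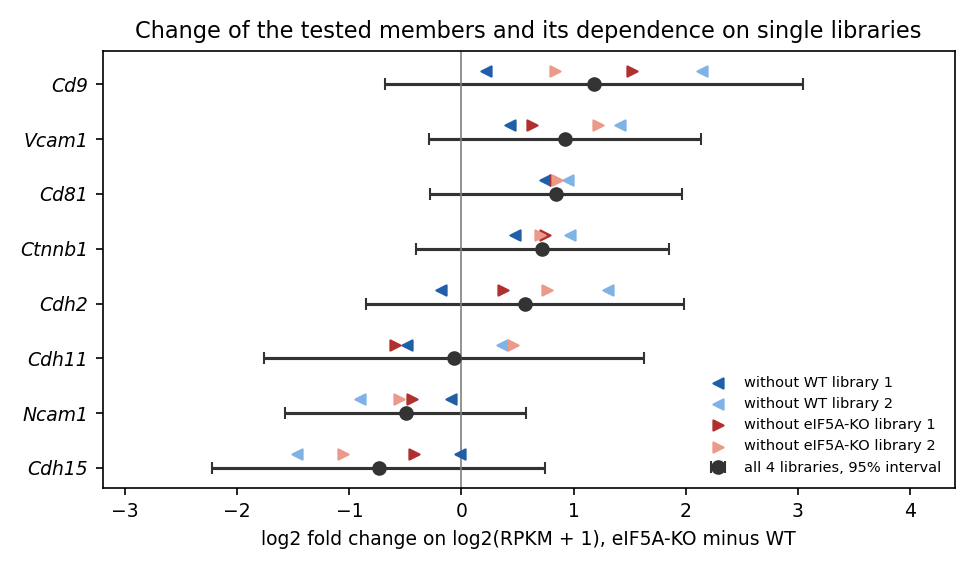
Log2 fold change (labelled eIF5A-KO minus WT) of the 8 tested genes with its 95% interval from limma over the 4 libraries, and above each the value with 1 library left out. All 8 intervals include 0, Cd81 and Ctnnb1 move little between the left-out values, and Cd9, Cdh2 and Cdh15 move most when a WT library is left out.

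The other genes of the pathway were taken from a list of 91 genes grouped by role, of which 86 had at least 1 read and 71 were tested. By limma 0 of the 71 were called at an adjusted p under 0.05. At an unadjusted p under 0.05, 4 were lower and 1 was higher, all of them by more than 2-fold, against 4.29% lower and 2.67% higher among all tested genes, and the median log2 fold change was -0.06. With 1 library left out that median lay between -0.19 and 0.0074.

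Of 12 tested fusion receptors and membrane proteins, 6 lay below 0 and 6 above. Myof, a ferlin known to act in myoblast fusion, had 6.84 and 7.92 RPKM in the WT libraries and 15.2 and 17.7 RPKM in the KO-labelled ones, a log2 fold change of 1.06 (SE 0.37, unadjusted p = 0.030, adjusted p = 0.672, limma). Dysf, a ferlin of membrane repair, had 3.39 and 3.82 against 6.88 and 6.24 RPKM. Of the 12, 3 lay above both WT values and 3 below, against 20.1% and 20.3% of all tested genes. Cdon, a receptor that binds cadherins and promotes myogenic differentiation, had 18.3 and 6.05 RPKM in the WT libraries and 2.72 and 3.21 RPKM in the KO-labelled ones, with WT library 1 the highest, and a log2 fold change of -1.56 (SE 0.55, unadjusted p = 0.031, adjusted p = 0.672, limma). It was -0.83 without WT library 1.

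The other tetraspanins lay on the same side of 0 as Cd9 and Cd81 in 6 of 7 cases, with a median log2 fold change of 0.53, and 0 passed. Cd63, which marks late endosomes and vesicles, had 45.5 and 86.5 RPKM in the WT libraries and 89.2 and 97.5 RPKM in the KO-labelled ones. Tspan14, a partner of the protease ADAM10, had 11.3 and 8.01 against 13.7 and 16.4 RPKM, and Cd53, a leukocyte tetraspanin, had 4.76 and 1.22 against 5.06 and 7.82 RPKM. Without WT library 1 the median of the 7 was 0.11.

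Of the other cadherins 5 of 11 were tested, with 2 below 0, 3 above and a median of 0.19, which ranged from -0.02 without WT library 2 to 0.37 without eIF5A-KO library 2 and was 0.09 without WT library 1 and 0.02 without eIF5A-KO library 1. Pcdhgc3 had 16.9 and 8.11 RPKM against 11.8 and 4.73, Cdh13, a cadherin held by a lipid anchor, had 5.17 and 4.91 against 2.65 and 4.30, and Pcdh7 had 0.47 and 3.20 against 4.78 and 2.45 RPKM. Cdh5, the cadherin of endothelial cells, was named after its values were seen, because it exceeded Cdh15, Cdh2 and Cdh11 in all 4 libraries. It had 71.0 and 63.6 RPKM in the WT libraries and 87.1 and 68.05 RPKM in the KO-labelled ones, and the groups overlapped.

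Of 6 tested catenins and partners, 3 lay below 0 and 3 above, with a median of -0.12 that became -0.21 and 0.10 when WT library 1 or 2 was left out and 0.32 over the 4 genes whose mean reached 5 RPKM. Ctnna1, alpha-catenin, had 24.5 and 39.3 RPKM in the WT libraries and 57.5 and 50.3 RPKM in the KO-labelled ones, and Vcl, vinculin, had 11.7 and 12.2 against 18.8 and 19.2 RPKM. Ctnnd1, p120-catenin, which steadies cadherins at the surface, had 1.81 and 1.74 against 0.45 and 0.68 RPKM from 21 reads in all. None of the 3 passed, with adjusted p from 0.697 to 0.712 (limma).

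Of 15 tested genes of beta-catenin turnover and transcription, 14 lay below 0 and 9 lay below both WT values without overlap, against 20.3% of all tested genes, with a median log2 fold change of -0.69. None was called at an adjusted p under 0.05 by limma, and 2 were lower at an unadjusted p under 0.05, both by over 2-fold, against 4.29% of all tested genes. Tcf7l1, a DNA-binding partner of beta-catenin that represses its targets, had 9.30 and 7.03 RPKM in the WT libraries and 2.25 and 3.16 RPKM in the KO-labelled ones (log2 fold change -1.31, SE 0.38, unadjusted p = 0.014, adjusted p = 0.650). Axin1, the scaffold of the complex that destroys beta-catenin, had 10.4 and 11.6 against 3.74 and 5.82 RPKM (log2 fold change -1.08, SE 0.39, unadjusted p = 0.033, adjusted p = 0.672). Lrp5, a Wnt co-receptor, had 18.1 and 12.0 against 5.77 and 8.65 RPKM. The list holds agents of both loss and use of beta-catenin. Relative to the median of all genes it lay at -0.65 with scaling to the same sum, where 11 of 15 were below 0, and 11 of 15 were below 0 without WT library 1.

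Of 9 tested ligands and partners of Vcam1 and Ncam1, 6 lay above 0 and 4 were above both WT values without overlap, against 20.1% of all tested genes, with a median of 0.43. Without WT library 2 the median was 0.09, and without eIF5A-KO library 2 it was 0.80. Itgb1, the beta chain of the integrin that binds Vcam1, had 48.0 and 87.9 RPKM in the WT libraries and 157.5 and 119.2 RPKM in the KO-labelled ones (log2 fold change 1.07, SE 0.51, adjusted p = 0.676, limma). Ezr, which ties membrane proteins to actin, had 11.1 and 19.4 against 28.5 and 31.6 RPKM. Gfra1, a co-receptor that works with Ncam1, had 6.36 and 1.55 against 1.61 and 0.68 RPKM, a log2 fold change of -1.05 that was -0.29 without WT library 1. Removing the trend of the change with coding GC content moved the median of the group to 0.12.

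Of 17 tested actin remodelling genes, 10 lay below 0 and 7 above, with a median of -0.23. It was -0.06 without WT library 1, -0.38 without WT library 2, -0.15 without eIF5A-KO library 2 and 0.10 over the 13 genes whose mean reached 5 RPKM. The small GTPases Rac1 and Cdc42, needed for fusion in mice, had 28.8 and 51.0 against 60.8 and 84.5 RPKM and 38.6 and 47.9 against 79.2 and 77.6 RPKM. Wipf1, which binds and steadies WASP proteins, had 11.8 and 11.5 against 3.55 and 6.72 RPKM (log2 fold change -1.10, SE 0.42, unadjusted p = 0.041, adjusted p = 0.672, limma).

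**Figure D4:**
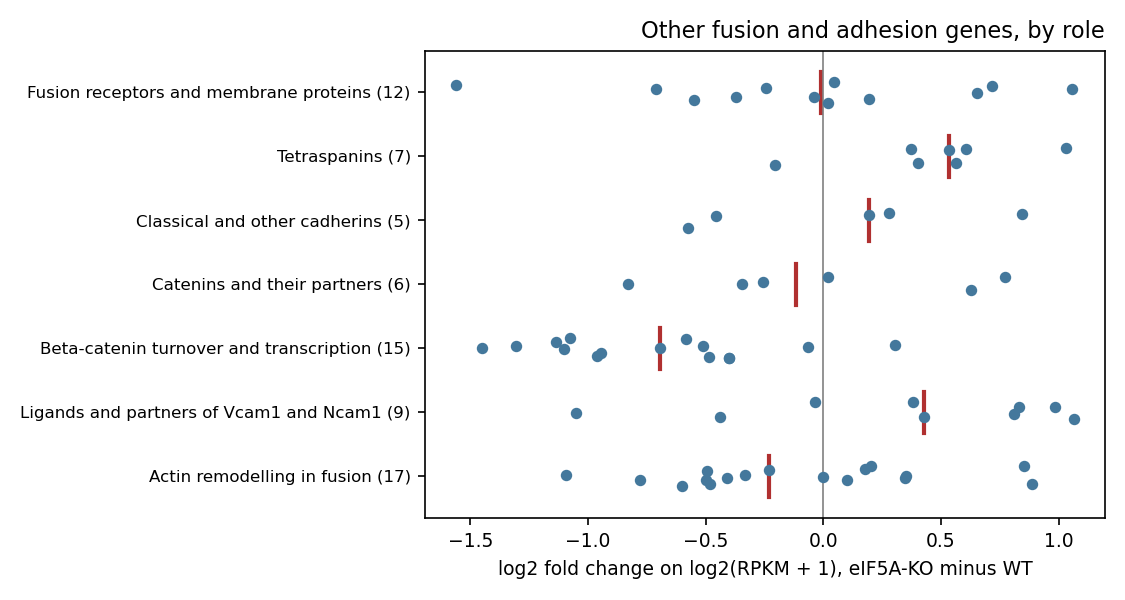
Log2 fold change (labelled eIF5A-KO minus WT) of the 71 tested genes of the pathway list, 1 point per gene, by role with the number tested, the red bar marking the median. In the group of beta-catenin turnover and transcription 14 of 15 points lie below 0, and of the other tetraspanins 6 of 7 lie above.

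Markers of the cell types that the cultures could hold were summed in each library. The 6 myoblast markers gave 240.9 and 193.4 RPKM for WT and 96.3 and 116.1 RPKM in the KO-labelled libraries, and the groups did not overlap in this sum. All 6 had a log2 fold change below 0, with a median of -1.43, and 5 of the 6 lay below both WT values, against 20.3% of all tested genes. The exception was Itga7, with 22.8 and 12.1 RPKM against 29.7 and 8.87 RPKM. At an unadjusted p under 0.05, 4 were lower, all by over 2-fold, against 4.29% of all tested genes. The median of the 6 was -1.13 without WT library 1, where 5 of the 6 lay below 0. It was -1.74 without WT library 2, -1.19 without eIF5A-KO library 1 and -1.57 without eIF5A-KO library 2. None of the 6 was called, with an adjusted p of 0.506 at the smallest (limma). With limma-voom on the recovered reads, which called 0.425% of the genes it tested, Chrna1 was called, at a log2 fold change of -2.36 (SE 0.52, adjusted p = 0.040). Chrna1, which codes for part of the acetylcholine receptor of muscle, had 17.4 and 15.97 RPKM against 2.26 and 4.52 RPKM. Pax7, the satellite cell regulator, had 8.49 and 3.62 against 0.94 and 1.48 RPKM, and Des, the muscle intermediate filament desmin, had 45.95 and 40.1 against 13.8 and 21.4 RPKM. Of the 6 markers, 1, Myf5, was at 0 in eIF5A-KO library 2. Itga7 and Myf5 were named after their values were seen.

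The 10 markers of differentiating muscle summed to 301.6 RPKM in WT library 1, 58.7 in WT library 2, and to 37.7 and 36.0 RPKM under the KO label. The 11 fibroblast markers summed to 631.4 and 426.7 RPKM in the WT libraries and 996.4 and 481.9 RPKM in the KO-labelled ones, so these sums overlapped between the groups. Of the 10 tested, 7 lay above 0 (median 0.37), and without eIF5A-KO library 1 only 4 did (median -0.01). Without WT library 1 their median was 0.58. All 6 tested endothelial markers lay above 0, their sum being 117.7 and 108.2 against 151.1 and 124.0 RPKM, without overlap, and 5 of the 6 lay above both WT values, against 20.1% of all tested genes. The immune markers summed to 27.8 to 54.4 RPKM, those of pericytes and smooth muscle to 40.8 to 57.8 and those of Schwann cells to 13.6 to 30.1 RPKM over the 4 libraries, and all 3 of these sums overlapped between the groups. Fewer cells of a type, less RNA per cell and fewer ribosomes per mRNA cannot be told apart in such bulk libraries. The part of these markers in the values of Vcam1, Cd81, Ctnnb1, Ncam1 and the cadherins was not tested.

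The change also moved with coding base composition. Over 9841 tested protein-coding genes the Spearman correlation of the log2 fold change with coding GC content was -0.36, and over the 8 tested members it was -0.52, both as descriptions of genes that share the same 4 libraries. Vcam1 had the lowest coding GC content of the members, 46.8%, and Mymx and Cdh15 the highest, 60.9% and 60.5%. Genes within 1 percentage point of Vcam1 had a median log2 fold change of 0.27 against 0.92 for Vcam1 itself, and those near Cdh15 had -0.32 against -0.74. Near Ctnnb1 and Cd81 the medians were 0.15 and 0.11 against 0.72 and 0.85, and near Ncam1 it was 0.03 against -0.50. Removing the GC trend moved the median of the members from 0.64 to 0.50.

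**Figure D5:**
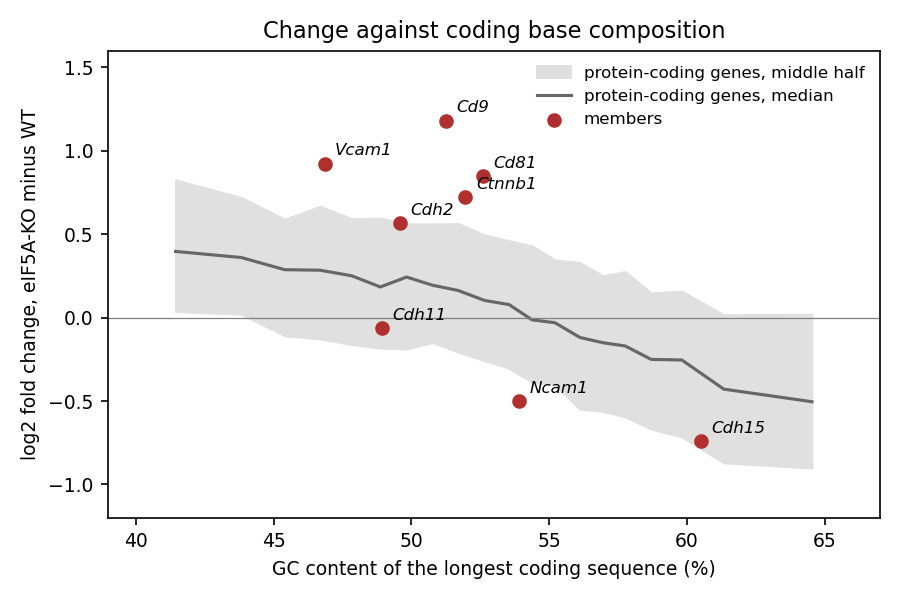
Log2 fold change (labelled eIF5A-KO minus WT) of the 8 tested genes against the GC content of their coding sequence in percent, with the median (line) and interquartile range (grey) of 9841 tested protein-coding genes in bins of GC content. The line falls with GC content, Cd9, Vcam1, Cd81 and Ctnnb1 lie above the grey band, Cdh15 lies within it and Ncam1 below it.

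The members differ in how much of the length used for RPKM is coding, from 24.7% in Cd81 to 72.4% in Cdh15, while a ribosome-protected signal comes mainly from the coding part. With reads scaled per kilobase of coding sequence instead, a choice made after the data were seen, the WT means were 477 for Cd9, 435 for Cd81, 179 for Ctnnb1, 34.3 for Vcam1, 15.1 for Ncam1, 9.63 for Cdh2, 6.28 for Cdh15 and 5.38 for Cdh11. The order of the first 4 was that of the RPKM values, and Cdh15 moved below Ncam1 and Cdh2. Genes with exons that overlap those of Ncam1, Vcam1, Cd9, Cd81 or Ctnnb1 held 0 to 3 reads over all 4 libraries. The strand used in counting is not given in the sources used here, so reads of a gene and its antisense partner cannot be told apart.

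The genes whose pattern over the 4 libraries lay nearest to Cd9 and Vcam1, the members with the largest change over all 4 libraries, were sought among 3357 protein-coding genes with at least 100 reads, by the Euclidean distance of log2(RPKM + 1) after its mean was removed. Nearest to Cd9 were Serpinb6a at a distance of 0.09, Ran at 0.17 and Rps13 at 0.18, all with their lowest value in WT library 1. Serpinb6a had 11.7 and 45.5 RPKM in the WT libraries and 44.8 and 72.6 RPKM in the KO-labelled ones. Nearest to Vcam1 were Tpi1, Cetn3 and Sqor at distances of 0.06, 0.06 and 0.09, all with their highest value in eIF5A-KO library 1. With 4 libraries such distances describe these libraries only.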

How the data were processed

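The deposited table held 1 RPKM value per gene and library, which the authors had computed after read filtering, mapping with TopHat2 to mm10 with an Ensembl annotation and counting with HTSeq. RPKM times gene length gave whole multiples of 1 step (tolerance 0.001) for 100% of values, so reads were recovered. The authors' library sizes, 471136 to 906990, equalled median-of-ratios size factors over 10490 genes multiplied by the geometric mean of total reads. Groups came from the genotype labels and replicate numbers from the sample titles. Genes whose mean reached 1 RPKM were tested with limma 3.58.1 in R 4.3.3 (lmFit, eBayes with trend=TRUE) on log2(RPKM + 1), which understates changes of weakly read genes, with Benjamini-Hochberg adjustment. The code was tested on simulated data. The members and lists were chosen with earlier results of these data known. Named were all members and, per role or marker list described by gene, the 3 genes with the smallest unadjusted p among those with at least 20 reads, and any called. Of 1 listed symbol, Arhgap26, a second identifier without reads was left out. The titles say Polysome-Seq, while the protocol describes ribosome profiling, and the time in cycloheximide is 10 min in the sample labels and 1 min in the design text. Translation efficiency was not computed, as RNA abundance was not used here. Alternatives were another pseudocount, filter, scaling or variance model, limma-voom on recovered reads, removal of the coding GC trend, a replicate block and leaving out each library.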

Additional observations from a re-analysis of the deposited data

How the results depend on the processing

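With every library kept, 0 members passed an adjusted p of 0.05 under any alternative by limma or limma-voom. The smallest adjusted p was 0.289 (limma, same sum of reads). Under all 15 alternatives, 112 of 116 member values kept their direction. That tally includes another filter, trend=FALSE and the replicate block, which cannot change a fold change. Cdh2 turned to -0.18 without WT library 1 and Cdh11 to 0.29 with scaling to the same sum, 0.36 without WT library 2 and 0.46 without eIF5A-KO library 2. With the same sum, Cdh11 was at -0.20 relative to the median of all genes, so it kept its side there. With a library left out, Cdh2 ranged from -0.18 to 1.31 and Cdh11 from -0.59 to 0.46, and the cause was not tested. Members over 2-fold higher at an unadjusted p under 0.05 numbered 4 with the same sum (13.9% of all genes) and 2 with quantile normalization (3.45%). With limma-voom there was 1 (3.21%), against 0 as reported (2.67%). That 1 was Vcam1, at a log2 fold change of 1.02 (limma-voom adjusted p = 0.474). The median of the members was 1.19 with the same sum, and 0.10 to 0.96 with a library left out. Pathway genes lower by that rule numbered 0 with the same sum (1.47% of all genes) and 7 with limma-voom (6.4%), against 4 as reported (4.29%). They numbered 2 with trend=FALSE and 2 with the GC trend removed, for which the share of all genes was not computed. Those higher numbered 14 with the same sum (13.9% of all genes), 2 with quantile normalization (3.45%) and 4 with limma-voom (3.21%), against 1 as reported (2.67%). With protein-coding reads scaled to 1 sum they numbered 0, and the share of all genes was not computed there either. The median of the pathway list was 0.0212 with a minimum mean of 5 RPKM, 0.37 with the same sum, -0.17 with protein-coding reads scaled to 1 sum and -0.19 to 0.0074 with a library left out. Only the same sum moved the median of all genes by over 0.1, to 0.50. With a library left out, the lone library is assumed to vary like the other group.

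The replicate block changed no member's call. In this balanced design it cannot change a fold change, so the median of the members stayed at 0.64. The same-numbered libraries of the 2 pairs deviated together with a correlation of 0.06. This value cannot show whether they shared a preparation, which was not tested. Per kilobase of coding sequence, 7 members had a WT level that moved by more than 1 SD. This follows from the shorter length used, so only the order of the genes is comparable between the scales. With 2 libraries per group, 0 to 2 reads per library for the fusogens, 3 to 14 for Cdh15 and 4 to 18 for Cdh11, depth limits these 4 genes most.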
